A study of Mus musculus with 32 samples.

Results

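The HoxB cluster on mouse chromosome 11 holds the 10 genes Hoxb13, Hoxb9, Hoxb8, Hoxb7, Hoxb6, Hoxb5, Hoxb4, Hoxb3, Hoxb2 and Hoxb1, and a Hoxb6 regulatory fragment drives the Cre recombinase of the HoxB6-Cre line that the study used to delete or to overexpress Etv2 in limb mesoderm. The cluster was examined from 20 kb beyond Hoxb13 to 20 kb beyond Hoxb1 (mm10, chr11:96174316-96388256), and every ATAC-seq peak summit in that window was assigned to the nearest transcript start of a member. This gave 314 of the 1234971 summits in the 32 deposited lists, and 48 of 133148 200-bp intervals. The Hoxb6 pattern across HoxB6-Cre carriers and other libraries was selected on these same lists, so its values are given as a description with no test.

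Hox genes encode homeodomain transcription factors that give cells their position along the body axis. Within a cluster the genes are switched on in their order along the chromosome, from Hoxb1, which acts in the hindbrain, toward Hoxb13, which acts in the tail region, and they share regulatory elements and antisense transcripts. Hoxb6 is transcribed in the lateral plate mesoderm, the tissue from which the limb mesenchyme grows out, which is why its regulatory sequence serves as a driver in hindlimb precursors. In ATAC-seq a transposase cuts DNA that nucleosomes leave free, and a summit marks the point of highest cutting within a peak.

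The libraries fell into a set of 18 from several limb bud populations and a set of 14 from an overexpression experiment. The first set held 3 libraries of EYFP+ cells from forelimbs and 3 from hindlimbs of Etv2-EYFP reporter embryos at E10.5 (labelled FL_GFP_pos and HL_GFP_pos, here FL EYFP+ and HL EYFP+; 3 numbered pools gave both limbs), 1 of wild-type hindlimb at E9.5 (HL_E9_5), 1 of anterior hindlimb and 1 of EGFP+ posterior hindlimb from Shh-EGFP embryos at E10.5 (Anterior_E10_5 and Posterior_E10_5), and 2 of wild-type posterior hindlimb at E10.25 (LimbWT_10_25, here E10.25 WT). It also held 2 libraries of posterior hindlimb at E10.5 (Etv2CKO_posteriorHL, here E10.5 CKO) and 5 at E10.25 (Etv2cKO_E10_25, here E10.25 CKO) from embryos with 1 HoxB6-Cre transgene, 1 floxed and 1 null Etv2 allele. No library with the HoxB6-Cre transgene and intact Etv2 was in that set, so the Cre transgene and the loss of Etv2 cannot be told apart in it. The overexpression set held anterior and posterior hindlimb parts (A and P) of 4 embryos labelled WT_Control and of 3 labelled Etv2_OE, the latter with HoxB6-Cre, a doxycycline-inducible HA-Etv2 and a Cre-dependent rtTA transgene. The study describes its controls in one place as lacking HoxB6-Cre and in another as littermates without the inducible or the rtTA transgene, so whether the WT_Control embryos carried HoxB6-Cre is not settled here. The labels date that set to E10.5. The study's methods give doxycycline injections at E9.5 and E10.5 and a harvest at a later stage than the labels, so the stage is not settled here. The driver's activity in forelimb precursors was partial, as the study states, and all Cre libraries were of hindlimb.

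Whole lists held 13763 to 54676 summits each, with no read counts. An unlisted site is therefore a site not called at an unknown depth and not a closed one. Replicates of 1 group could differ strongly in the cluster, and FL EYFP+ replicate 3 listed 29 HoxB summits against 0 and 4 in the other two libraries. It also listed 30 HoxA summits against 8 and 4. Promoters of limb mesenchyme markers were listed in most libraries, Prrx1 in 29, Twist1 in 31 and Msx1 in 29 of 32, and the hindlimb genes Pitx1 and Tbx4 in 25 and 27. Of the 3 mesenchyme markers and 2 hindlimb markers, Anterior_E10_5, the shortest list, held Tbx4 alone. The forelimb gene Tbx5 was listed in 0 libraries, those of forelimb included. Among markers of other cells, the endothelial promoters Cdh5 and Pecam1 were listed in 0 libraries, Emcn in 1, Tek in 4 and Kdr in all 32. The blood promoters Ptprc and Spi1 were listed in 0 and Gata1 in 1. The ectodermal promoters Krt5 and Krt14 were listed in 0, Trp63 in 4 and Epcam in 17. The muscle progenitor promoters Lbx1, Myf5 and Pax3 were listed in 0, 6 and 13 libraries.

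The following 4 stretches carry the Hoxb6 pattern described here and are shown on the plus strand of GRCm38 (mm10). They lie inside the Hoxb6 gene, upstream of its second annotated transcript start at position 96299171 and within an intron of both the long Hoxb6 transcript and the antisense transcript Hoxb5os. They cover chr11:96294657-96294857, chr11:96295769-96295969, chr11:96297132-96297332 and chr11:96298910-96299066, of which the first was listed only in libraries that did not list the other 3. Capitals mark matches, on either strand, to the words named after the sequences.
Hoxb6 intron, upstream site: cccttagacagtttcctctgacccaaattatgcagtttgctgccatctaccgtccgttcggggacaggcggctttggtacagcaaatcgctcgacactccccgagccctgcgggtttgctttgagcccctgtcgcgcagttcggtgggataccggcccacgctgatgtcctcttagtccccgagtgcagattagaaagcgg
Hoxb6 intron, first site: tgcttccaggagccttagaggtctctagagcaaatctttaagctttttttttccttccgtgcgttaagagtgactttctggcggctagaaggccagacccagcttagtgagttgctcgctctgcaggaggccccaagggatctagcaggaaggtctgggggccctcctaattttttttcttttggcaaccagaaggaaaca
Hoxb6 intron, second site: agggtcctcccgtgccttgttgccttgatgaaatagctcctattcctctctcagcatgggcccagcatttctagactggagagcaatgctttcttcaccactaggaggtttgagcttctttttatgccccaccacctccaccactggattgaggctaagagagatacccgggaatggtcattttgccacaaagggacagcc
Hoxb6 intron, the third site, before the second start: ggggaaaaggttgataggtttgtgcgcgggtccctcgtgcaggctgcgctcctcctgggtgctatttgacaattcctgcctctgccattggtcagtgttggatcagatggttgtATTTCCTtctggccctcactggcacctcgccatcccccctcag

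The words searched were AGGAAGT and AGGAAAT, which hold the core of the ETS sites to which ETV2 binds, TAATTA for homeodomain proteins, TGATTGAT and TGATTTAT for PBX-HOX pairs, TTTATTG and TTTATGG for posterior HOX proteins, and the core of the CTCF motif, searched on both strands. AGGAAGT and AGGAAAT share their first 5 letters, and TGATTTAT, TTTATTG and TTTATGG share the letters TTTAT. The third Hoxb6 site held AGGAAAT on the minus strand from position 96299024, which 3 of the 48 HoxB intervals (6.25%) and 6.87% of all 133148 intervals also held. The first, second and upstream Hoxb6 sites matched none of these words. TTTATGG was in 4 HoxB intervals (8.33%) and in 4.59% of all. AGGAAGT was in 1 HoxB interval (2.08%, against 5.53% of all), TAATTA in 2 (4.17%, against 7.81%), TGATTTAT in 1 (2.08%, against 1.72%), TTTATTG in 2 (4.17%, against 5.07%), TGATTGAT in 0 (against 0.614%) and the CTCF core in 3 (6.25%, against 9.51%). The median GC content was 54.2% in the HoxB intervals and 50.7% over all.

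Summits separated by gaps of at most 250 bp were joined into 51 sites, a choice made after seeing the data, of which 17 were listed by 1 library, 34 by 2 or more, 18 by 8 or more and 4 by 16 or more. The widest-shared site lay in an intron of Hoxb4, a gene known for its role in blood stem cells, 1118 bp past the transcript start (chr11:96319232-96319626), and was listed by 22 libraries. The next lay between Hoxb5 and Hoxb4 (chr11:96311504-96312105) and was listed by 20. Both appeared in Etv2 CKO, reporter, wild-type, control and Etv2_OE libraries. The other 2 sites with 16 or more libraries lay in Hoxb6 and were listed by 19 and 17 libraries, none of them among the 11 reporter, wild-type and E9.5 or E10.5 single libraries.

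**Figure D1:**
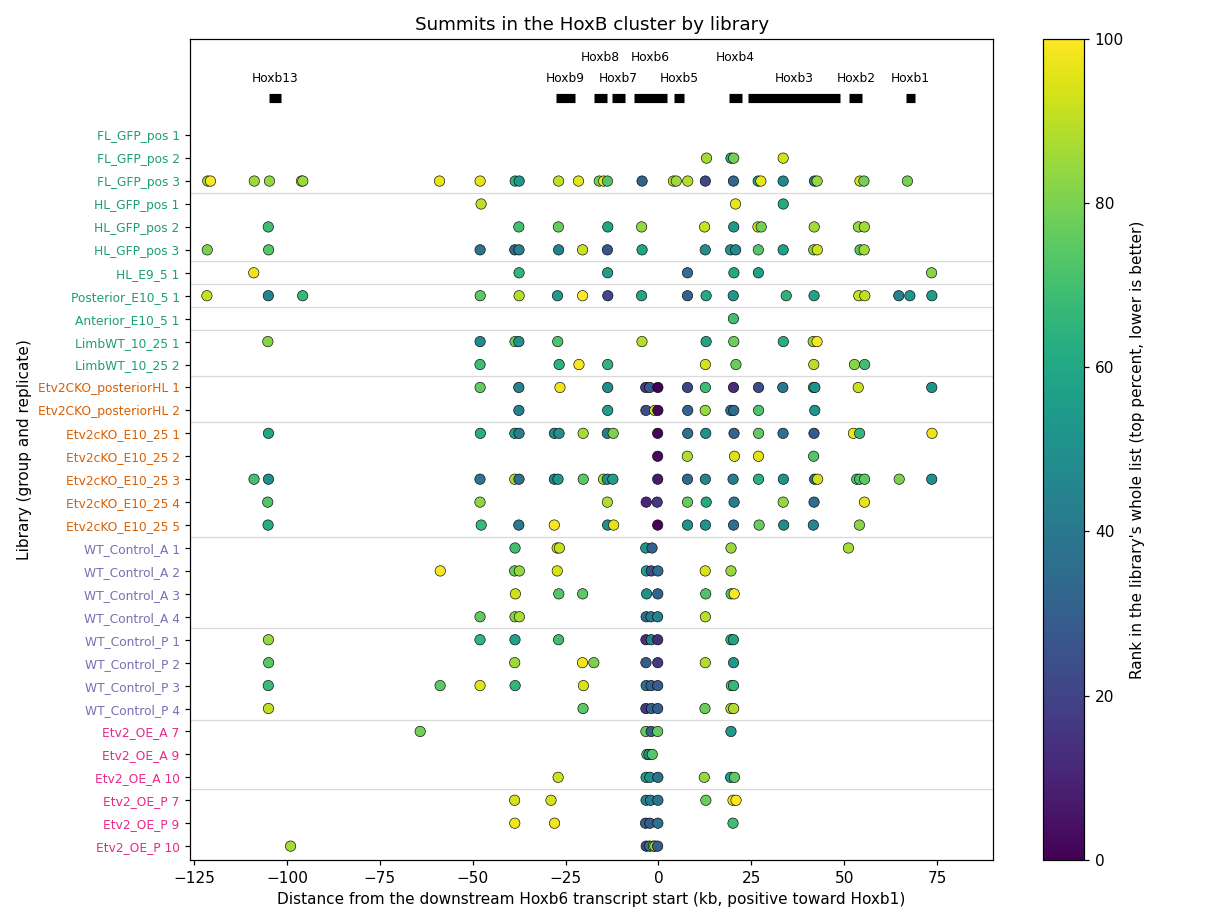
Summits of the HoxB cluster in each of the 32 libraries, by distance in kb from the downstream Hoxb6 start, with black bars for the 10 genes and the colour of a point giving its rank in its library's whole list (top percent, lower is better). Label colours mark reporter, wild-type and single libraries (green), CKO (orange), WT_Control (violet) and Etv2_OE (pink); the 14 libraries of the overexpression set list 1 summit in all from the first Hoxb3 start to the end of the window beyond Hoxb1.

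At Hoxb6 itself, 3 sites spread over 3.32 kb (chr11:96295690-96299011) were listed in at least 1 place by all 7 CKO, all 6 Etv2_OE and all 8 WT_Control libraries and by 0 of the other 11. The third site, centred at -208 bp from the second Hoxb6 start, was listed by 7 of 7 CKO, 5 of 6 Etv2_OE and 7 of 8 WT_Control libraries. The first site, at -3340 bp, was listed by 3, 6 and 8 of these libraries, and the second, at -1995 bp, by 1, 6 and 6. All 3 sites were listed together by 1 CKO, 5 Etv2_OE and 5 WT_Control libraries.

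The third site ranked close to the top of the CKO lists. In E10.5 CKO it was summit 175 of 34493 in replicate 1 and 457 of 28366 in replicate 2, the top 0.507% and 1.61%. In E10.25 CKO its rank was 410, 434, 2853, 3271 and 324 in replicates 1 to 5, the top 1.26%, 2.78%, 6.67%, 16.6% and 1.07%. It was the best HoxB summit in 6 of these 7 libraries, and in E10.25 CKO replicate 4 the first Hoxb6 site, at rank 2225 of 19734, stood before it. In the other 11 libraries the best HoxB summit of any kind had a rank of 9103 or worse, and FL EYFP+ replicate 1 had none.

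In the overexpression set the same site stood further down. Posterior WT_Control libraries listed it at the top 12.2%, 17.4%, 29.1% and 28.1% (embryos 1 to 4), and anterior ones at the top 34.9%, 32.3% and 43.7% (embryos 2 to 4), while anterior embryo 1 did not list it. Posterior Etv2_OE libraries listed it at the top 38.2%, 36.8% and 30.4% (embryos 7, 9 and 10), and anterior ones at the top 76.4% and 37.3% (embryos 7 and 10), with embryo 9 unlisted. The ranges of control and Etv2_OE libraries overlapped in the anterior part. In the posterior part the top percents did not overlap, but the control lists were longer, and the ranks themselves overlapped, at 6408, 8916, 15923 and 15145 in controls and 17969, 14030 and 11771 in Etv2_OE. In lists of equal length the mean rank score was 0.514 in posterior Etv2_OE and 0.613 in posterior controls (SE of the difference 0.0984; limma adjusted p = 0.905). Ranks depend on list length and depth, which differed between the sets, so CKO and overexpression ranks are set side by side and not compared.

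The summit positions of the third site were close to one another. In posterior controls they lay within 4 bp, from 96298960 to 96298964, and in E10.5 CKO at 96299007 and 96299010. In E10.25 CKO replicates 1, 2 and 5 all had the summit at 96298951, and replicates 3 and 4 had it at 96298963 and 96298819. The second site was looser. The 6 control libraries that listed it had their summits from 96297146 to 96297439. Of the 6 Etv2_OE libraries, 4 had a summit from 96296617 to 96296848, and these were both parts of embryos 9 and 10. The anterior part of embryo 9 also listed a summit at 96297509, at the top 73.3%, on the side of the control summits. Both parts of embryo 7 had their summit elsewhere, at 96297215 (anterior) and 96297046 (posterior). E10.5 CKO replicate 1, the only CKO library with this site, had its summit at 96296813, within the stretch from 96296617 to 96296848. This shift was chosen after its values were seen. At the interval centred on 96296813 the mean rank score, in lists of equal length, was 0.264 in anterior Etv2_OE and 0.381 in posterior Etv2_OE against 0 in both control groups (differences of 0.264, SE 0.103, and 0.381, SE 0.146), and neither passed limma's test over all intervals (adjusted p = 0.895 and 0.801). At the interval centred on 96297232, in the same site, the scores were 0.203 in anterior Etv2_OE against 0.258 in controls, and 0.119 against 0.272 in the posterior part (adjusted p = 0.993 and 0.9004). The 2 further Hoxb6 intervals tested there, centred on 96296069 and 96297439, had scores of 0.0679 against 0.106 and of 0.0673 against 0.145 in anterior Etv2_OE and controls (adjusted p = 0.982 and 0.979).

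**Figure D2:**
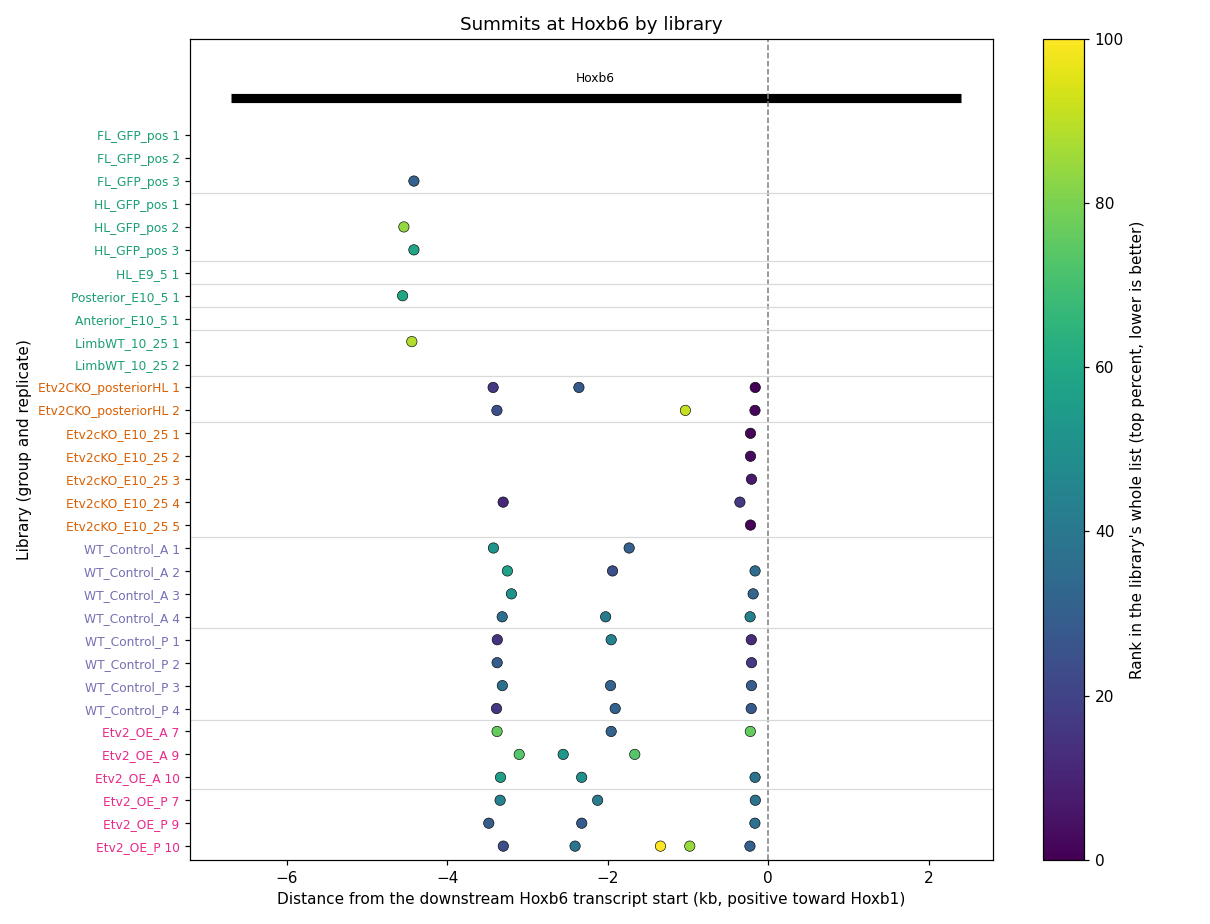
Summits at Hoxb6 by library, with distance in kb from the downstream Hoxb6 start (dashed line), the gene as a black bar and colour for the rank in the whole list (top percent, lower is better). CKO, WT_Control and Etv2_OE libraries list summits in the 3.32 kb nearest the start, and the 5 green libraries with a summit list it further upstream.

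A different site in the same intron was listed by libraries of the other group alone. Upstream of the 3 sites, at chr11:96294616-96294757, FL EYFP+ replicate 3 listed a summit at the top 30.6%, HL EYFP+ replicates 2 and 3 at the top 83.6% and 58.9%, Posterior_E10_5 at the top 59.4% and E10.25 WT replicate 1 at the top 88.6%. It was listed by 5 of these 11 libraries and by 0 of the 21 CKO, Etv2_OE and WT_Control libraries. The share of all intervals listed in this way was not counted, and nothing is read from it. The HoxB6-Cre transgene contains Hoxb6 sequence whose extent is not given in the sources used here, and reads from the transgene and from the endogenous gene cannot be told apart in the summit lists.

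Over the genome, few intervals shared the presence pattern of the third Hoxb6 site. Listed in all 7 CKO libraries and in none of the 11 others were 4 of 133148 intervals (0.003%), of which 1 of the 48 HoxB intervals was the third Hoxb6 site. The remaining 3 lay on chromosomes 13 and 3 and, within 2000 bp of the metallothionein gene Mt1, on chromosome 8. Listed in at least 19 of the 21 CKO, Etv2_OE and WT_Control libraries and in none of the 11 others were 2 intervals (0.0015%), the same Hoxb6 site and 1 on chromosome 17. The pattern was selected on these lists, and nothing is read from these shares.

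Hoxb6 stood apart from its neighbours in the same libraries. The rank score of a summit runs from near 0 at the end of a whole list to 1 at its top, and is 0 where no summit lies within 500 bp of a transcript start. The Hoxb6 score minus the mean of those of Hoxb5 and Hoxb7 was 0.995 and 0.984 in E10.5 CKO and 0.888, 0.972, 0.712, 0.834 and 0.969 in E10.25 CKO. It ran from 0 to 0.878 in WT_Control (median 0.693, above 0 in 7 of 8) and from 0 to 0.696 in Etv2_OE (median 0.623, above 0 in 5 of 6). In the other 11 libraries it ran from -0.0759 to 0 (median 0). The CKO values did not overlap those of the 11 libraries, whereas control and Etv2_OE values overlapped each other. These differences were fixed by how the gene was chosen.

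Promoter listing of the members, in cluster order, differed widely. The Hoxb13 promoter was listed in 13 of 32 libraries, among them all 4 posterior WT_Control libraries and 0 of the 4 anterior ones. The posterior control ranks were 44030, 37885, 37230 and 48798, the top 84.1%, 73.9%, 68.1% and 90.4%. Anterior control lists ended at 40945 to 45762 summits and Etv2_OE lists at 32666 to 47051, so some of these ranks lie beyond their ends. The promoter was listed in 0 of the 6 Etv2_OE, 0 of 2 E10.5 CKO and 4 of 5 E10.25 CKO libraries. In whole lists its mean score was 0 in posterior Etv2_OE and 0.209 in posterior controls (limma adjusted p = 0.396). The share of all intervals split in this way was not counted, and nothing is read from the split. Hoxb9, which with its paralogs takes part in setting the posterior limb identity, was listed in 7 libraries, 3 of them E10.25 CKO. Hoxb8, whose misexpression in the anterior limb is known to give a mirror-image limb, was listed in 1 library. Hoxb7 was listed in 3 libraries, all E10.25 CKO, at the top 80.2%, 55.7% and 96.0%. Hoxb6 was listed in 19. Hoxb5, which helps to set the forelimb's position, was listed in 1, and Hoxb4 in 10, of which 5 were WT_Control. The hindbrain genes Hoxb3, Hoxb2 and Hoxb1 were listed in 0, 2 and 1 libraries. Outside Hoxb6, the best promoter rank of any member was the top 40.7%, at Hoxb4.

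**Figure D3:**
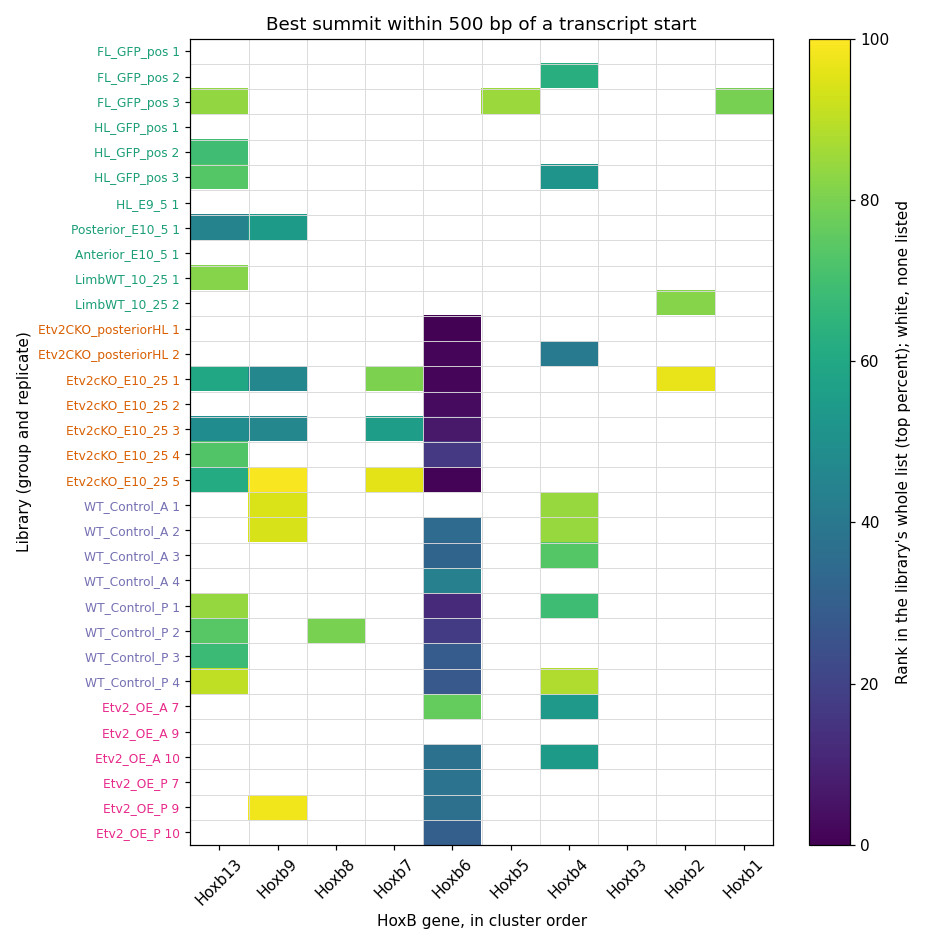
Rank of the best summit within 500 bp of a transcript start of each HoxB gene (columns, in cluster order) in each of the 32 libraries (rows), as top percent of the whole list, with white where none was listed. The Hoxb6 column is filled in 19 libraries and holds every value under the top 40%.

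Away from promoters, several sites recurred. A site between Hoxb8 and Hoxb7 (chr11:96285404-96285532) was listed by 6 of 7 CKO and 6 of 11 other libraries, from the top 20.98% in Posterior_E10_5 to the top 88.2% in E10.25 CKO replicate 4, and by 0 of 14 libraries of the overexpression set. Between Hoxb9 and Hoxb8, a site at chr11:96278715-96278964 was listed by 8 libraries, 2 CKO, 2 other and 4 WT_Control, at the top 74.3% at best. The Hoxb2 site shared by most libraries (chr11:96352929-96353424) was listed by 4 CKO and 4 other libraries, at the top 66.1% at best, and that of Hoxb1 (chr11:96372673-96372789) by 3 CKO and 2 other libraries, at the top 49.5% at best. An intronic Hoxb3 site (chr11:96340813-96341257) was listed by 7 of 7 CKO, 6 of 11 other and 0 of 14 libraries.

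By nearest member start, Hoxb9 held 65 of the 314 summits (25 libraries), Hoxb6 58 (26), Hoxb4 57 (29), Hoxb3 41 (16), Hoxb13 24 (15), Hoxb2 19 (11), Hoxb7 15 (12), Hoxb8 14 (10), Hoxb5 12 (10) and Hoxb1 9 (6). The Hoxb4 intron site was listed by all 7 CKO libraries, at the top 12.9% and 34.8% in E10.5 CKO and at the top 31.9%, 94.5%, 42.3%, 41.0% and 36.7% in E10.25 CKO. In controls it was listed in 4 of 4 posterior libraries, at the top 58.1%, 54.2%, 66.8% and 88.1%, and in 1 of 4 anterior ones, at the top 99.9%. By rank the posterior values, 30433, 27787, 36525 and 47586, overlapped the anterior one, 44321. Its mean score in whole lists was 0.332 in posterior and 0.000163 in anterior controls (SE of the difference 0.0739), which did not pass limma's test (adjusted p = 0.0671).

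The stretch between Hoxb13 and Hoxb9, which holds the non-coding gene Gm53, had 3 sites with 13 or more libraries. The site at 56 bp from a Gm53 start (chr11:96251131-96251463) was listed by 5 of 7 CKO, 6 of 11 other, 3 of 8 WT_Control and 0 of 6 Etv2_OE libraries, from the top 38.1% in HL EYFP+ replicate 3 to the top 95.8% in FL EYFP+ replicate 3. The site at 25 bp from another Gm53 start (chr11:96261582-96261729) was listed by 5, 6, 2 and 0 of these libraries, and the CKO values ran from the top 36.8% to the top 44.4%. The intronic site between them (chr11:96260447-96260659) was listed by 2 of 7 CKO, 3 of 11 other, 7 of 8 WT_Control and 2 of 6 Etv2_OE libraries. A site in an intron of Hoxb9 (chr11:96271907-96272659) was listed by 14 libraries, of which 3 were CKO, 6 other, 4 WT_Control and 1 Etv2_OE, at the top 43.7% at best.

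The 2 sets differed over whole stretches of the cluster. From the first Hoxb3 start to the end of the window beyond Hoxb1, 16 of 18 libraries of the first set listed a summit, 68 in all, against 1 of 14 and 1 summit in the overexpression set. Between the second Hoxb6 start and the stretch before Hoxb4, which holds Hoxb5, 10 of 18 and 0 of 14 libraries listed one. Inside Hoxb6 upstream of its second start, the order was opposite, with 17 summits in 12 of 18 libraries against 41 summits in 14 of 14. From Hoxb13 to Hoxb9, 14 of 18 and 13 of 14 libraries listed a summit, and around Hoxb4, 17 of 18 and 12 of 14. The median list length was 43702 summits in the overexpression set against 34427 in the first, and the depth behind either is unknown. The share of all intervals listed in the first set and in no library of the other was not counted. These differences are therefore not read as particular to HoxB. In whole lists the other clusters also had fewer summits per library in the overexpression set. The medians were 8.5 against 15.5 in HoxD and 10 against 13 in HoxC, and the HoxA median was lower there too. The sets also differ in transgenes and labelled populations, which cannot be told apart here.

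The 7 comparisons of groups within a set were made with limma on rank scores in lists cut to equal length, 10000 summits in the first set and 30000 in the other, over all intervals listed in at least 2 libraries of the comparison. Between Etv2_OE and control, 0 of 7 HoxB intervals tested were called in the anterior part, where 0.133% of all 46644 intervals were, and 0 of 5 in the posterior part, where 0.134% of 45543 were. At an unadjusted p under 0.05 there were 2 in the anterior part, the second Hoxb6 site and the Hoxb4 promoter, and 1 in the posterior part, the second Hoxb6 site. The Hoxb4 interval, centred on 96318649, had a mean rank score of 0.214 in anterior Etv2_OE and 0 in anterior controls (SE of the difference 0.0866; adjusted p = 0.895). The 0 comes from the cut at 30000, since 3 anterior controls listed the Hoxb4 promoter at ranks 34568, 36365 and 32721. In whole lists the scores were 0.306 in anterior Etv2_OE and 0.143 in anterior controls (SE of the difference 0.130; limma adjusted p = 0.772).

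The fits of posterior against anterior parts given here did not use the pairing by embryo, and fits that did are given at the end. Between posterior and anterior parts of the same embryos, 0 of 5 HoxB intervals were called in controls, where 1.86% of 48668 intervals were, and 0 of 6 in Etv2_OE, where 0.799% of 44574 were. At an unadjusted p under 0.05 there was 1 in each, and it was the first Hoxb6 site. Its mean rank score was 0.574 in posterior and 0.292 in anterior controls (difference 0.281, SE 0.106; adjusted p = 0.329), and 0.539 and 0.183 in Etv2_OE (difference 0.355, SE 0.125; adjusted p = 0.425). The third Hoxb6 site had 0.613 and 0.339 in controls and 0.514 and 0.194 in Etv2_OE, and also did not pass (adjusted p = 0.482 and 0.552). In the whole lists the posterior part had the higher score in 7 of 7 embryos at both of these sites, and in 4 of 7 at the second. At the third site the anterior parts of control embryo 1 and Etv2_OE embryo 9 listed no summit and scored 0. Posterior control lists were longer than anterior ones, 51265 to 54676 against 40945 to 45762 summits. In lists of equal length the posterior part was higher in 7 of 7 embryos at the first site, in 6 of 7 at the third and in 4 of 7 at the second. At the third site control embryo 3 had rank 15923 in the posterior and 14330 in the anterior part. The share of all intervals with the same order in every embryo was not counted, and nothing is read from these orders. The Hoxb13 promoter was beyond the lists of equal length, and in whole lists its mean score was 0.209 in posterior and 0 in anterior controls (SE 0.0538; adjusted p = 0.112), with 2.9% of 82699 intervals called and 0 of 19 in HoxB.

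Forelimb and hindlimb EYFP+ libraries gave 0 HoxB intervals to test in lists of equal length, where 0% of 14913 intervals were called. In whole lists 20 HoxB intervals were tested, of which 0 had an unadjusted p under 0.05. The 3 forelimb libraries listed 0, 4 and 29 HoxB summits and the 3 hindlimb libraries 3, 12 and 18, so the groups overlapped. In both limbs the first of the 3 pools gave the fewest.

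In the 2 comparisons of CKO with libraries without HoxB6-Cre, the third Hoxb6 site was called, which is the contrast on which it was selected, and nothing is read from it. In E10.25 CKO against E10.25 WT it was 1 of 2 HoxB intervals tested (1.88% of 16003 called over all), with a mean rank score of 0.854 against 0 (SE of the difference 0.109). In E10.5 CKO against HL EYFP+ it was 1 of 4 (2.69% of 13798), with 0.969 against 0 (SE 0.0675). These groups also differ in sorting, since HL EYFP+ cells were sorted and the study describes E10.5 CKO cells as unsorted.

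Whole lists bring more of the cluster into these comparisons. In E10.25 CKO against E10.25 WT, 26 HoxB intervals were tested and 1 was called, again the third Hoxb6 site, where 3.99% of 55868 were called over all. The Hoxb3 intron site had a mean score of 0.557 against 0.0540 (SE 0.128; adjusted p = 0.109). In E10.5 CKO against HL EYFP+, 20 were tested and 3 called, where 3.33% of 47776 were. Of these, 2 were the first and the third Hoxb6 sites, at 0.796 (SE 0.0683) and 0.989 (SE 0.0647) against 0, which were selected on this contrast, and 1 lay outside Hoxb6. The Hoxb4 intron site had 0.762 against 0.154 (SE 0.184; adjusted p = 0.200), and the Hoxb3 intron interval centred on 96341257 had 0.490 against 0.0462 (SE 0.0804; adjusted p = 0.0682).

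The number of HoxB summits per library was compared in the lists of equal length by an exact permutation test of the absolute difference of means, two-sided, and no comparison passed after adjustment over the 7. E10.5 CKO libraries had 6 and 4 HoxB summits (mean 5.00 ± 1.41 SD, n = 2) against 0.333 ± 0.577 (SD, n = 3) in HL EYFP+. With 2 against 3 libraries the smallest possible p is 0.1, and the exact test gave p = 0.1 (adjusted 0.267). E10.25 CKO libraries had 2, 1, 1, 4 and 1 (mean 1.80 ± 1.304 SD, n = 5) against 0 and 0 in E10.25 WT (exact p = 0.0952, adjusted 0.267; smallest possible 0.0476). Anterior Etv2_OE libraries had 5, 3 and 5 (mean 4.33 ± 1.15 SD, n = 3) against 3, 3, 2 and 3 in anterior controls (mean 2.75 ± 0.500 SD, n = 4; exact p = 0.114, adjusted 0.267; smallest possible 0.0286). Posterior Etv2_OE libraries had 3, 4 and 3 against 3 in each of the 4 posterior controls (exact p = 0.429, adjusted 0.600). Posterior against anterior gave exact p = 1 in controls and exact p = 0.4 in Etv2_OE, where 3 against 3 allows no less than 0.1, and hindlimb against forelimb EYFP+ gave exact p = 1, each adjusted to 0.600 or above.

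**Figure D4:**
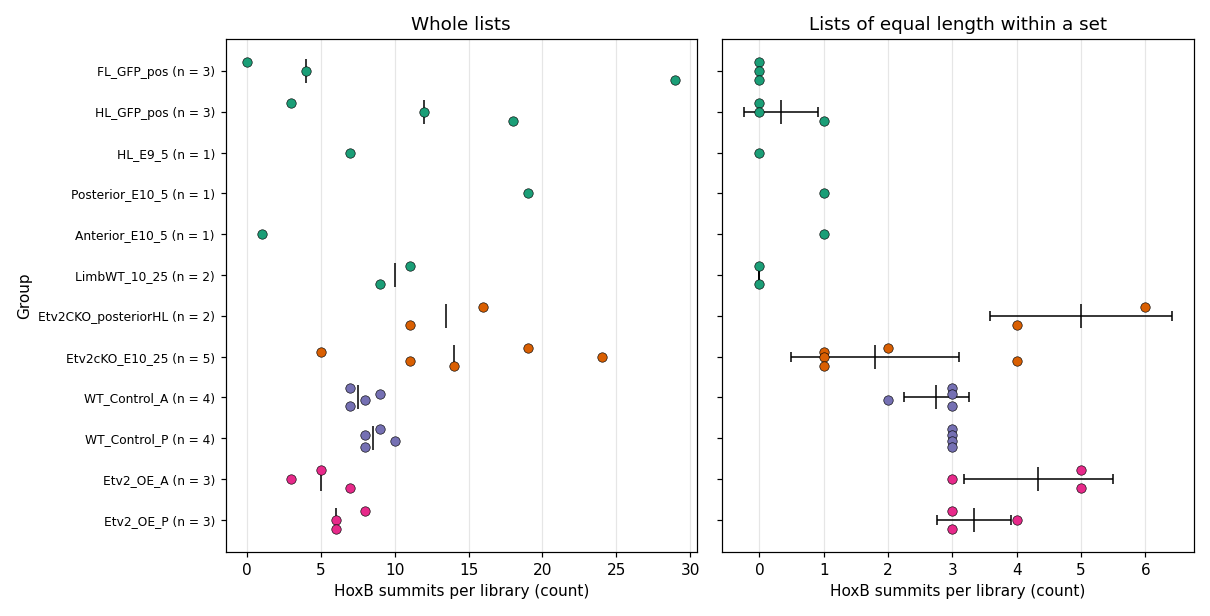
HoxB summits per library (count, horizontal axis) by group, in whole lists (left, black tick for the median) and in lists of equal length, 10000 summits in the upper 8 groups and 30000 in the lower 4 (right, black bar for mean ± SD). In whole lists FL EYFP+ spreads from 0 to 29 and E10.25 CKO from 5 to 24, and in lists of equal length E10.5 CKO, at 4 and 6, stands above HL EYFP+, at 0, 0 and 1.

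The promoters of the other Hox clusters and of HOX cofactors gave 0 calls in the 7 limma comparisons, but many could not be tested in lists of equal length. In E10.5 CKO against HL EYFP+ and in hindlimb against forelimb, 0 HoxA, 0 HoxC and 0 HoxD promoters were tested, and in E10.25 CKO against E10.25 WT 0 HoxA, 2 HoxC and 4 HoxD. At an unadjusted p under 0.05 there were 2 in all, 1 HoxC promoter between posterior and anterior controls and 1 HoxD promoter between anterior Etv2_OE and control. The HoxA list of 11 genes had up to 3 promoters tested in a comparison, the HoxC list of 9 up to 2, the HoxD list of 9 up to 4 and the 9 PBX, MEIS and PKNOX cofactors up to 6. The HoxB list of 10 had up to 2 tested, and 1, Hoxb6, was higher in each CKO comparison. Hoxb6 was selected on that contrast, so its call does not set HoxB apart from the other lists. In the set of 18, a library listed a median of 4 HoxA, 3 HoxC, 6 HoxD and 1 HoxB promoter, and in the overexpression set 4, 2, 4 and 2. Cofactor promoters were listed at a median of 7.5 and 5 of 9.

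The 5 protein-coding genes outside the cluster whose promoter rank score ran most like that of Hoxb6 over the 32 libraries, among 12525 promoters listed in at least 16, were Srp54b (Spearman's rho 0.768), Gm10722 (0.715), Srp54c (0.665), Ccdc126 (0.660) and Cdk12 (0.626). Each of these promoters was listed in all 32 libraries, those without a Hoxb6 summit included. Srp54b and Srp54c are near-identical copies, reads that match more than 1 place were discarded, and the points share their libraries and depth. These values are a description and carry no p.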

How the data were processed

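Nuclei of mouse limb bud cells were profiled by ATAC-seq in 32 libraries. The authors aligned reads to mm10 with Bowtie2 2.2.4, discarded multi-mapping and duplicate reads (Picard), offset read ends for the transposase and called summits for each library with MACS2 (version not given in the sources used here). Each line of a deposited list holds 1 summit and its −log10 q-value, and these values were used only for ranks. Mitochondrial summits (2 to 5 per list) were dropped.

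Genome intervals of 200 bp were laid greedily on summits by relative rank, and 133148 called in at least 2 libraries (summit within 200 bp) were kept. A summit at rank r of a list of n scored (n + 1 - r)/n, and an unlisted interval scored 0. Lists were cut to 10000 (18 libraries) or 30000 summits (14). Groups came from the labels and were compared by limma 3.58.1 (R 4.3.3) with no block and a threshold of 0.05 on the adjusted p, and single values by exact permutation tests with Benjamini-Hochberg adjustment. Where the labels do not name separate embryos (CKO and WT), p-values measure only the spread between libraries. The study states that its wild-type and CKO samples were pools of several embryos, with more embryos in a wild-type pool than in a CKO pool. Posterior and anterior parts of 1 embryo, and forelimb and hindlimb of 1 pool, are pairs. The main limma fits and the permutation tests did not use this pairing, and only the fits with a replicate block did. Their rank scores, less group means, correlated at -7.25e-05 to 0.0411 in control embryos, 0.0214 to 0.0401 in Etv2_OE embryos and 0.287 to 0.607 in pools.

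Annotation was GENCODE M21 basic, and sequences came from GRCm38.p6. The rule for naming covered the promoters of the 10 members, intervals past the threshold and those assigned to Hoxb6, and the site of a member shared by most libraries was given in place of its interval with the best median rank. The members, lists and motifs were chosen with earlier results of these data known, and sites joined at gaps of up to 250 bp and the 2 presence rules, and the order of posterior and anterior in lists of equal length, were chosen after seeing the data. Alternatives were whole lists, a summit within 100 bp, no filter, no flank, 1000 bp around starts, the gene record's start, a replicate block and leaving out each library. The steps were tested on simulated data. An interval past the threshold, and results that rest on it, are not reported here.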

Additional observations from a re-analysis of the deposited data

Results flagged for a closer look

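Both values below were flagged because 1 of the 4 anterior WT_Control libraries stood apart by Dixon's criterion. For continuous values chance meets it in about 1 in 20 groups. That rate does not hold for tied counts or for a score set to 0 where no summit is listed. In the lists of equal length, replicate 3 held 2 HoxB summits and the other 3 libraries held 3 each. For Hoxb6 against its neighbours, replicate 1 had a rank score difference of 0, since it listed no summit within 500 bp of a Hoxb6 start, and the others had 0.651, 0.677 and 0.563. Replicate 1 did list the first and second Hoxb6 sites, at the top 52.1% and 30.7%.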

How the results depend on the processing

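Of 145 values recomputed under the alternatives, 128 were counted as unchanged. For intervals this meant the same number of HoxB calls, and for the Hoxb6 rank a median within 1 SD of the main one. For summit counts it meant a sign that did not reverse, and a difference of 0 was counted as unchanged. Such a 0 arose in posterior Etv2_OE against control without embryo 9 of Etv2_OE. It also arose in posterior against anterior controls without anterior replicate 3, and in hindlimb against forelimb without hindlimb replicate 3. Depth is unknown and single-library differences of rank cannot be separated from it. In limma on HoxB intervals, E10.25 CKO against E10.25 WT fell from 1 call to 0 with a summit within 100 bp, and E10.5 CKO against HL EYFP+ went from 1 to 3 in whole lists. Leaving out 1 library gave 0 to 1 calls in these 2 comparisons. The call was lost without E10.25 CKO replicate 1, without either E10.25 WT library, without HL EYFP+ replicate 1 or 2, and without either E10.5 CKO library. Without either E10.5 CKO library 0 HoxB intervals were left to test. A lone library left in a group was taken to vary like those of the other group. For posterior Etv2_OE against control it gave 0 to 1, and the 1, without embryo 7, was the Hoxb6 interval centred on 96296813. Over all intervals that fit called 174, against 61 with all libraries. Leaving out HL EYFP+ replicate 1 or 2 took the calls over all intervals in E10.5 CKO against HL EYFP+ from 371 to 0. Leaving out E10.25 CKO replicate 1 took those in E10.25 CKO against E10.25 WT from 301 to 125.

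With the replicate block, posterior against anterior and hindlimb against forelimb stayed at 0 HoxB calls each, paired by embryo or pool, also in whole lists. Over all intervals the block took posterior against anterior from 903 to 0 calls in controls and from 356 to 0 in Etv2_OE. The block on whole lists, which was added with the data in view, left 187 and 0.

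HoxB summits per 10000 of a whole list reversed 4 differences, none past the threshold in either form. Etv2_OE minus control went from 1.58 to -0.415 in the anterior part and from 0.333 to -0.0399 in the posterior part, and posterior minus anterior went from 0.250 to -0.136 in controls and from -1 to 0.239 in Etv2_OE. With the start of the gene record in place of all transcript starts, the Hoxb6 difference moved to a median of 0 in CKO, Etv2_OE and WT_Control libraries, since that record starts with the long transcript.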
